A study of Mus musculus with 6 samples.

Results

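Leukemia 1 is 1 of 2 primary leukemias sequenced from a mouse model in which bone marrow progenitors carry the MLL-AF4 fusion and an activated NRAS, and its transcriptome was compared with that of wild-type pro-B cells. The libraries were chosen by their titles alone: replicates 1 and 2 of leukemia 1 against replicates 1 and 2 of the wild-type pro-B cells, which are 4 of the 6 libraries of the series. The other 2 libraries, from leukemia 92 of the same genotype, are given only beside results of leukemia 1. The title of the series names joint inhibition of MEK and ATR in this leukemia model as its subject. The comparison asks which genes the untreated leukemia cells express more or less than the wild-type pro-B cells.

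The leukemia cells have the genotype Mll-Af4/ N-RasG12D. They descend from c-Kit+ Sca1+ cells, sorted from lineage-depleted marrow of Mll-Af4 mice aged 6 to 8 weeks and kept overnight in medium with interleukin 7 and other cytokines that favour lymphoid growth. These cells received Cre from an MSCV retrovirus that also encodes TdTomato, and then N-RasG12D from another retrovirus. Sorted cells, 250000 a mouse, were injected with 200000 wild-type helper marrow cells into recipients irradiated with 900 rads. The retroviral promoter is not restricted to B cells, both host and helper cells can remain in the marrow, and the labels used here name no sort of the leukemia cells before RNA was taken. The pro-B cells are wild-type bone marrow cells sorted as B220+ CD43+ IgM-, and the labels give neither their strain nor their age. Bone marrow is the stated tissue of both groups, and total RNA was taken and made into libraries with the same kits. The labels do not say whether replicates are separate animals, so the p-values measure only the spread between these libraries. In the pro-B pair that spread may be technical. The leukemia 1 libraries differed in granulocyte markers and Y-linked counts, as given below.

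As background, pro-B cells are early B-lineage cells that rearrange the immunoglobulin heavy chain with the RAG recombinase and terminal transferase, under control of the factors EBF1 and PAX5. MLL fusion proteins bring transcription elongation factors to their target genes, among which the HOXA cluster and MEIS1 are the best known. An NRAS held in its GTP-bound form drives RAF, MEK and ERK, and ERK in turn switches on ETS and early growth response factors together with phosphatases and Sprouty proteins that dampen the same pathway.

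The 4 libraries held between 24026378 and 27444759 gene counts, and 3 counts in a library corresponded to 0.109 to 0.125 CPM, the counts per 1000000 gene counts of the library. The 2 leukemia 1 libraries were far less alike than the 2 pro-B libraries. The standard deviation of the log2 differences between replicates was 1.33 in leukemia 1, against 0.35 in pro-B cells and 0.40 in leukemia 92. Of 14442 genes tested, 3890 lay at least 2-fold apart between the leukemia 1 libraries, 2392 of them higher in replicate 2. Markers of granulocytes summed to 1561 CPM in replicate 1 and to 19680 CPM in replicate 2, against 1220 and 1353 CPM in the pro-B libraries. In bulk RNA, more cells of a type and more RNA per cell cannot be told apart. Transcripts of 4 Y-linked genes summed to 121 counts in replicate 1 and 1205 in replicate 2, with 0 in both pro-B libraries. For these reasons the values of both leukemia 1 libraries are given for the genes described, and a gene is described as shared where both lie at least 2-fold on the same side of the pro-B mean and outside the range of the pro-B libraries.

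By that rule 1020 genes (7.06% of those tested) were at least 2-fold higher in both leukemia 1 libraries and 1926 (13.3%) were at least 2-fold lower. Another 739 genes were at least 2-fold higher in replicate 1 alone and 834 in replicate 2 alone. At least 2-fold lower were 1235 genes in replicate 1 alone and 635 in replicate 2 alone. Among these genes, 254 went at least 2-fold in opposite directions. The edgeR quasi-likelihood test, at a Benjamini-Hochberg adjusted p under 0.05, called 392 genes higher (2.71%) and 540 lower (3.74%) in leukemia 1. All 932 called genes had both leukemia 1 libraries on the same side of the pro-B mean, and 914 of them were at least 2-fold away in both. A gene on which the leukemia 1 libraries differ widely has a large error in this test and is rarely called, whatever its mean. Leaving out pro-B replicate 1 or 2 left 0 genes called by edgeR, where 1473 and 1458 genes had p under 0.05 before adjustment. In those fits the spread comes from the 2 leukemia 1 libraries alone.

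**Figure D1:**
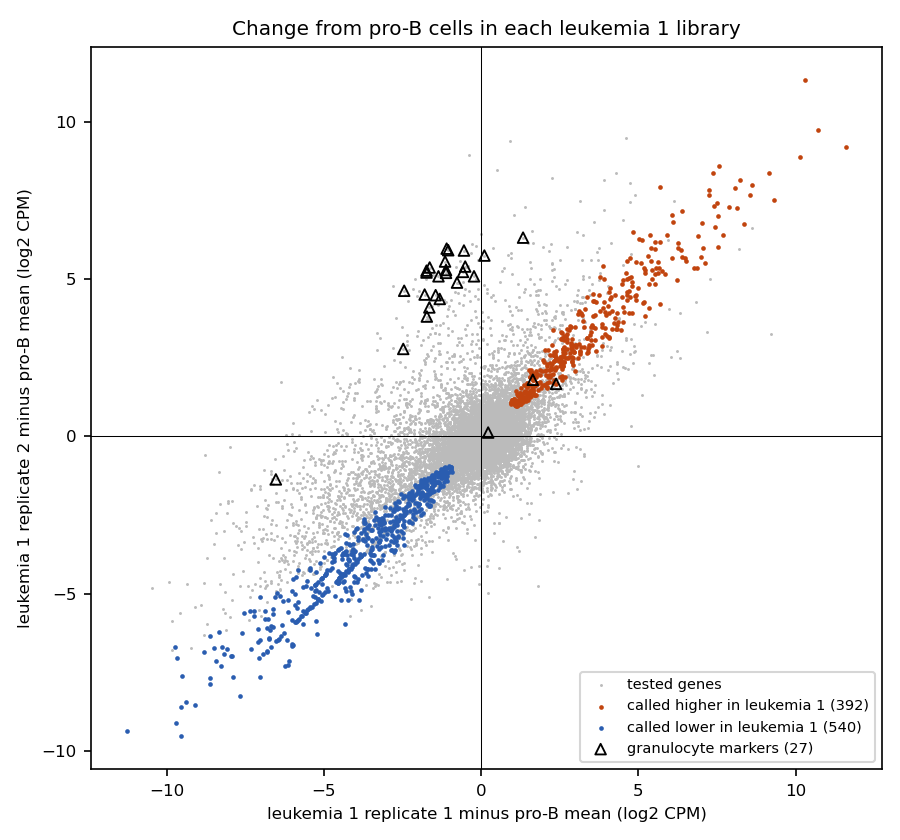
Change from the pro-B mean in leukemia 1 replicate 1 (x axis) and replicate 2 (y axis), in log2 CPM, for the 14442 genes tested; coloured points are the 392 genes called higher and the 540 called lower by edgeR, and triangles are the 27 granulocyte markers. Called genes lie along the diagonal, while most granulocyte markers sit high in replicate 2 alone.

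The transforming genes come first, as a check of the labels. Nras stood at 353 and 338 CPM in leukemia 1 replicates 1 and 2 and at 169 and 166 CPM in the pro-B libraries. Both leukemia libraries lay above both pro-B libraries, by 1.15 on the log2 scale (standard error, SE, 0.15, edgeR adjusted p = 0.041). Reads of the N-RasG12D retrovirus and of the endogenous gene are counted together. Mll1, the gene for the N-terminal partner of the fusion, stood at 118 and 62.0 CPM against 284 and 268 CPM. It was at least 2-fold lower in both leukemia libraries but not called (edgeR adjusted p = 0.11). Aff1, which encodes AF4, stood at 221 and 123 CPM against 252 and 274 CPM and was not called (edgeR adjusted p = 0.44). Normal and fusion transcripts of these 2 genes cannot be told apart in gene counts.

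Output and feedback genes of ERK were higher in both leukemia 1 libraries. Of 19 members tested, 10 rose by the edgeR test and none fell, against 2.71% and 3.74% of all genes. In both libraries 12 were at least 2-fold higher (7.06% of all genes). The median change was 1.66 in replicate 1 and 1.41 in replicate 2 on the log2 scale, against -0.05 and -0.10 over all genes. Etv4, an ETS transcription factor induced by ERK, stood at 55.2 and 79.1 CPM in leukemia 1 and at 0.280 and 0.375 CPM in pro-B cells. This difference of 7.76 (log2, SE 0.35, edgeR adjusted p = 0.023) was the largest of the group, and Etv5, the close relative of Etv4, rose by 2.5 (SE 0.20) from 19.4 and 22 CPM to 117 and 101 CPM.

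Phosphatases and other brakes of the pathway rose as well. Dusp6, the phosphatase that acts on ERK in the cytoplasm, stood at 431 and 573 CPM against 150 and 149 CPM, a rise of 1.84 (log2, SE 0.19, edgeR adjusted p = 0.034). Dusp4, a nuclear phosphatase of the same family, stood at 74.6 and 58.6 CPM against 2.88 and 5.62 CPM. Spry4, a Sprouty protein that restrains RAS signalling, stood at 69.6 and 31.0 CPM against 1.40 and 2.41 CPM, so that both leukemia libraries were more than 10-fold above either pro-B library. Errfi1, an inhibitor of the EGF receptor, was at 19.8 and 31.4 CPM against 2.60 and 3.66 CPM, and Phlda1 at 94.2 and 117 CPM against 7.99 and 8.70 CPM; both rose. Smaller rises were found for Myc (149 and 126 CPM against 60.4 and 48.8 CPM), the G1 cyclin Ccnd1 (301 and 280 CPM against 112 and 131 CPM) and the RAS GTPase-activating protein Rasa4 (127 and 122 CPM against 64.5 and 57.8 CPM).

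Not every member moved. Spred1 was at 446 and 124 CPM against 48.4 and 50 CPM, at least 2-fold higher in both libraries but with a wide spread in leukemia 1, and it was not called (edgeR adjusted p = 0.12). Spry1 and Spry2 were below the pro-B mean in both leukemia libraries, with log2 changes of -0.51 and -1.01 for Spry1 and of -1.62 and -0.55 for Spry2, and neither was called. Etv1, the third ETS factor of the PEA3 group, had 0.579 and 2.08 CPM against 4.08 and 4.04 CPM and was not called either. Emp1 lay within the range of the pro-B libraries, with 91.4 and 90.9 CPM against 132 and 86.4 CPM.

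The proteins that carry the signal from RAS to ERK showed no such shift. Of 26 members tested, Nras alone was called higher and none lower, against 2.71% and 3.74% of all genes. The median change was 0.04 on the log2 scale. Braf, a kinase directly below RAS, had 101 and 52.8 CPM against 59.5 and 60.4 CPM, above the pro-B libraries in replicate 1 and below them in replicate 2. Rasgrp1, an exchange factor that loads RAS with GTP, was lower in both libraries, at 0.347 and 3.32 CPM against 45.4 and 54.0 CPM, but was not called (edgeR adjusted p = 0.099).

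**Figure D2:**
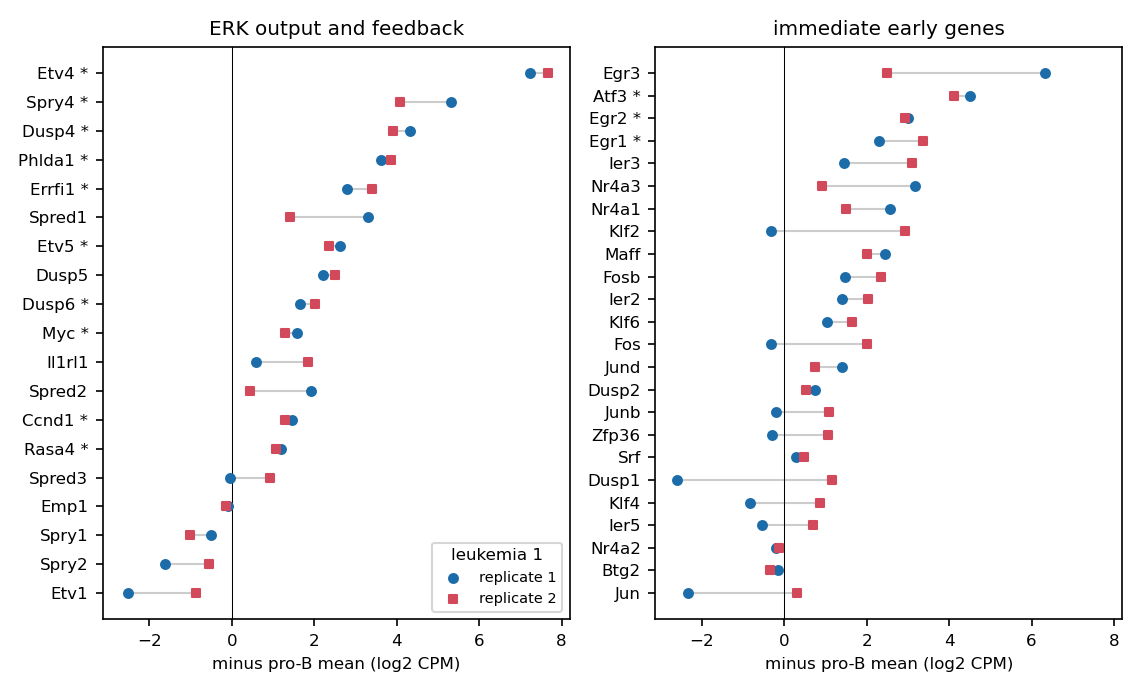
Change of each tested member of 2 gene groups from the pro-B mean, in log2 CPM, in leukemia 1 replicate 1 (circles) and replicate 2 (squares), with called genes marked by an asterisk. The 10 called ERK output genes lie right of 0 in both libraries, with Spry4 more than 2-fold apart between them, while several early genes, such as Fos, Jun and Dusp1, lie on opposite sides of 0 in the 2 libraries.

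Immediate early genes, which are transcribed within minutes of a signal without new protein synthesis, were higher in part and with more disagreement. Of 24 tested, 3 rose by the edgeR test (2.71% of all genes), none fell, and 10 were at least 2-fold higher in both libraries (7.06% of all genes). Egr2, an early growth response factor, had 22.9 and 22.6 CPM against 2.68 and 3.54 CPM, a rise of 2.97 (log2, SE 0.28, edgeR adjusted p = 0.032). Atf3, a stress-induced factor, had 191 and 152 CPM against 6.75 and 12.5 CPM. Egr1 had 337 and 741 CPM against 78.0 and 73.2 CPM. All 3 were thus high in both leukemia libraries.

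Other early genes followed replicate 2. Fos had 134 CPM in replicate 1 and 699 CPM in replicate 2, against 199 and 170 CPM in the pro-B libraries. Jun had 53.4 and 346 CPM against 324 and 269 CPM, and Dusp1 had 18.5 and 266 CPM against 126 and 122 CPM. These genes were below both pro-B libraries in replicate 1 and above both in replicate 2. Klf2 was split in the same way, with 33.3 and 333 CPM against 43.4 and 48.9 CPM. Granulocyte markers were likewise higher in replicate 2 (19680 against 1561 CPM summed), and their part in these differences was not tested. Egr3 went the other way, at 40.1 CPM in replicate 1 and 2.88 CPM in replicate 2, both above the 0.479 and 0.458 CPM of pro-B cells.

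The upstream sequences of 2 of these ERK-responsive genes are shown because they hold CArG boxes, the sites bound by serum response factor, which many early genes share. Each is the window of 250 bases before a transcription start in RefSeq (GRCm38.p6), 5′ to 3′ on the gene's strand, with the CArG boxes in capitals. The Egr2 window is chr10:67537619-67537868 on the plus strand, and the Dusp5 window, with 2 adjacent boxes, is chr19:53528895-53529144 on the plus strand. Egr2 has windows at other starts that are not printed. That at chr10:67535249-67535498 holds no CArG box, and that at chr10:67537316-67537565 holds a different box.
Egr2: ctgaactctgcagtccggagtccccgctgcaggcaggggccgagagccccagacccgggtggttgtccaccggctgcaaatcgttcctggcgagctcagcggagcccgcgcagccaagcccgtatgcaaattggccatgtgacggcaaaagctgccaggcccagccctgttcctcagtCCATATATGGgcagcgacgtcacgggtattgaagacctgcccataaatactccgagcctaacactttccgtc
Dusp5: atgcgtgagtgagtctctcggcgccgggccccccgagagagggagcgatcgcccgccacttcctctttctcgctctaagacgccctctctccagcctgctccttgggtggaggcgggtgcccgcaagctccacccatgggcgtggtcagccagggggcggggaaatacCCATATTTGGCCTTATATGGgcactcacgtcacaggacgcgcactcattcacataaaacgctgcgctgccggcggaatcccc

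Dusp5, a nuclear ERK phosphatase, stood at 458 and 580 CPM in leukemia 1 against 81.7 and 143 CPM, at least 2-fold higher in both libraries with an edgeR adjusted p of 0.052. Over all 27025 genes with a window, 1.62% held a CArG box on either strand in at least 1 window. Among the ERK output genes with a window, 2 of 13 held one (Dusp5 and Rasa4), and among the immediate early genes 3 of 21 (Egr2, Srf and Zfp36). The ETS core CCGGAAG, sought on both strands, was in 0 of the 13 ERK output genes, 2 of the 21 early genes and 7.83% of all genes. The early growth response motif GCGNGGGCG, sought likewise, was in 10 of the 21 early genes, 0 of the 13 ERK output genes and 5.33% of all genes. TGANTCA, the AP-1 site, was in 1 of 13, 0 of 21 and 7.82%, and TGACGTCA, the cyclic AMP response element, in 1 of 13, 3 of 21 and 1.77%. A match is only a run of letters in the window and was not tied to any factor here.

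Targets of the p53 tumour suppressor were higher in leukemia 1. Of 23 tested, 8 rose and none fell, against 2.71% and 3.74% of all genes, 11 were at least 2-fold higher in both libraries (7.06% of all genes), and the median change was 1.62 in replicate 1 and 0.79 in replicate 2 on the log2 scale. Cdkn1a, which encodes the CDK inhibitor p21, stood at 498 and 272 CPM against 39.5 and 26.7 CPM, a rise of 3.65 (log2, SE 0.46, edgeR adjusted p = 0.041). Plk3, a stress-activated kinase, rose from 6.31 and 6.53 CPM to 64.7 and 57.9 CPM. Phlda3, an inhibitor of AKT, rose from 1.76 and 2.16 CPM to 43 and 29.7 CPM, and Zmat3, an RNA-binding protein, from 9.63 and 10.2 CPM to 209 and 118 CPM. Eda2r had 11.1 and 4.81 CPM against 0.0799 and 0.0832 CPM. Mdm2, the ubiquitin ligase that degrades p53, had 270 and 144 CPM against 115 and 122 CPM and was not called (edgeR adjusted p = 0.23), and Rrm2b was lower in both libraries but not called (edgeR adjusted p = 0.051).

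The Cdkn2a locus changed by more. Cdkn2a, which encodes both p16INK4a and p19ARF, stood at 72.0 and 41.5 CPM against 0.2 and 0.208 CPM, a rise of 8.20 (log2, SE 0.51, edgeR adjusted p = 0.024). Its neighbour Cdkn2b, the gene of p15INK4b, had 751 and 208 counts in leukemia 1 and none in either pro-B library. That is at least 294-fold higher against a floor of 3 counts over the 2 pro-B libraries, although the 2 leukemia libraries were too far apart for a call (edgeR adjusted p = 0.068). Of the remaining CDK inhibitors, Cdkn2c was at least 2-fold lower in both libraries, at 24.9 and 35.4 CPM against 75.3 and 77.3 CPM, and was not called.

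Genes of programmed death rose on both sides of the balance. Among 9 BH3-only and BAX-type death genes tested, 4 rose and none fell, where 2.71% of all genes rose and 3.74% fell. Bbc3, which encodes PUMA, had 41.3 and 35.3 CPM against 2.68 and 3.5 CPM (log2 change 3.74, SE 0.28, edgeR adjusted p = 0.026). Pmaip1, which encodes NOXA, had 430 and 242 CPM against 12.9 and 22.2 CPM, and the effector Bax had 129 and 168 CPM against 46.9 and 48.5 CPM. These 3 are p53 targets as well and stand in both groups. Bid, the link from death receptors to mitochondria, had 100 and 112 CPM against 55.5 and 57.9 CPM and rose as well.

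Survival proteins of the BCL2 family were also higher in part. Of 7 tested, 2 rose (2.71% of all genes) and none fell. They were Bcl2a1d, at 13.9 and 12 CPM against 0.0799 and 0.166 CPM, and Bcl2a1b, at 3.98 and 3.72 CPM against 0.160 and 0.208 CPM. The A1 genes are near-identical copies, so their separate counts are uncertain. Mcl1 had 1324 and 916 CPM against 512 and 540 CPM and missed the threshold (edgeR adjusted p = 0.080), and Bcl2 had 28.9 and 24.1 CPM against 46.6 and 47.5 CPM (edgeR adjusted p = 0.11).

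Genes of the ATR and CHK1 checkpoint, which slows the cell cycle when replication stalls, were called by edgeR in a share near that of all genes. Of 19 tested, none rose and 1 fell, against 2.71% and 3.74% of all genes. Before adjustment, 3 were higher and 2 lower at an edgeR p under 0.05, against 4028 of all 14442 genes in either direction. DESeq2 called 1 lower and 0 higher, where it called 3159 genes in all. The median change was -0.13 on the log2 scale. Atr itself had 75.2 and 59.2 CPM against 111 and 109 CPM, below both pro-B libraries in each leukemia library (log2 change -0.60, SE 0.20), but did not pass the test (edgeR adjusted p = 0.17). Chek1 had 74.8 and 47.8 CPM against 73.0 and 68.4 CPM, above the pro-B libraries in replicate 1 and below them in replicate 2. The member that fell was Cdc25b, a phosphatase that activates mitotic cyclin-dependent kinases, at 24.3 and 55.4 CPM against 357 and 359 CPM (log2 change -3.07, SE 0.46).

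By edgeR, 0 of 30 genes of homologous recombination and the Fanconi pathway were called, 0 of 36 replication genes and 0 of 28 ribosome biogenesis genes. Over all genes 2.71% were called higher and 3.74% lower. Before adjustment, with edgeR p under 0.05, the recombination genes gave 1 higher and 3 lower. The replication genes gave 5 lower and the ribosome biogenesis genes 5 higher. Each list gave a smaller share than the 4028 of all 14442 genes. In the same order, DESeq2 called 1 higher and 1 lower, 1 lower, and 2 higher, where it called 3159 genes in all. The median changes of these lists were -0.10, -0.12 and 0.41 on the log2 scale. Pcna, the sliding clamp of DNA polymerase, had 420 and 501 CPM against 548 and 527 CPM, a fitted log2 change of -0.12 (SE 0.15).

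Mitotic genes were lower, by less than 2-fold for most. Of 30 tested, 3 fell (3.74% of all genes) and none rose, with a median change of -0.63 on the log2 scale. In both libraries 2 were at least 2-fold lower, a share below the 13.3% of all genes. Top2a, the topoisomerase of mitotic chromosomes, had 741 and 729 CPM against 1712 and 1632 CPM (log2 change -1.08, SE 0.13, edgeR adjusted p = 0.040), and the kinetochore protein Cenpf, at 86.9 and 102 CPM against 242 and 251 CPM, and the spindle motor Kif11, at 242 and 221 CPM against 508 and 505 CPM, fell as well. Mki67, which encodes the Ki-67 antigen, had 754 and 866 CPM against 1538 and 1428 CPM and was not called (edgeR adjusted p = 0.064). Replicate 1 was the lower library for many members. In replicate 1 only, 10 of the 30 were at least 2-fold below the pro-B mean, against 1235 of the 14442 genes tested. Plk1 was one of these 10, at 18.3 CPM in replicate 1 and 50.5 CPM in replicate 2 against 76.0 and 77.8 CPM.

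**Figure D3:**
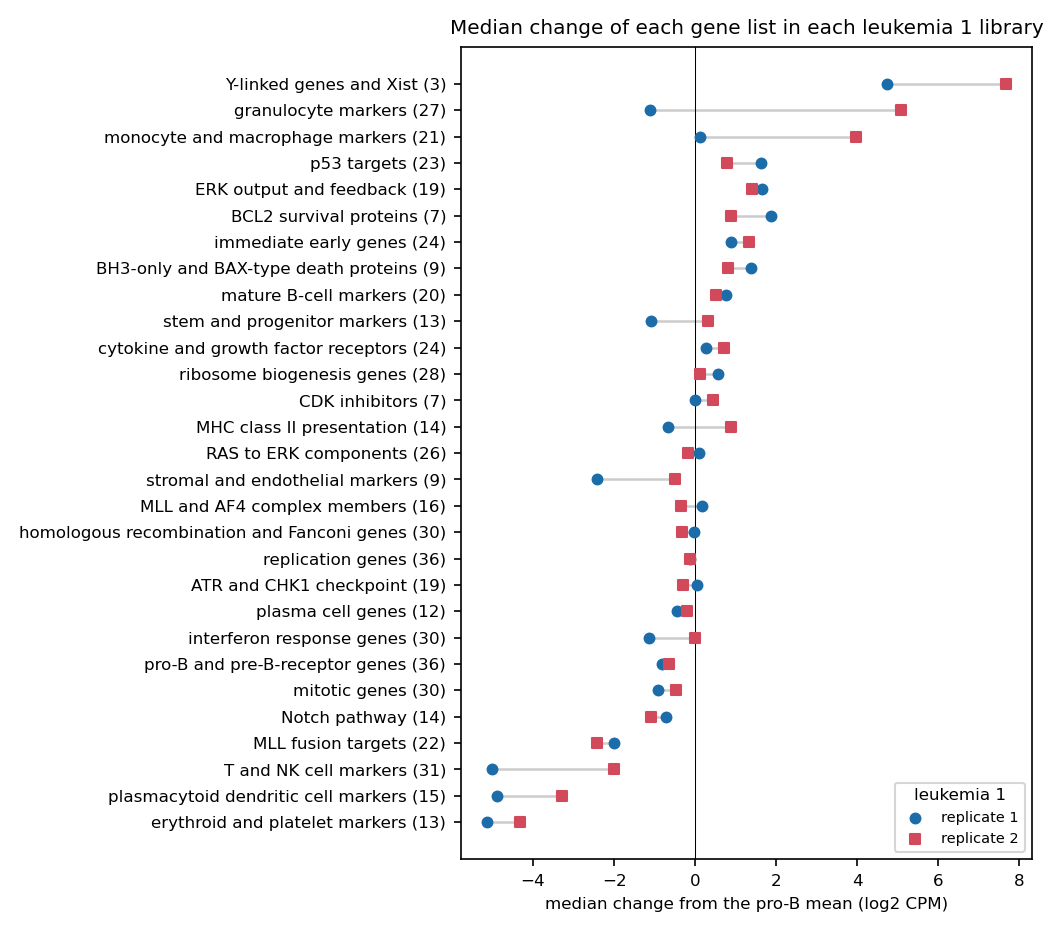
Median change from the pro-B mean, in log2 CPM, of the tested members of each of 29 gene lists (number of members in parentheses) in leukemia 1 replicate 1 (circles) and replicate 2 (squares). ERK output, p53 target and BCL2 family lists lie right of 0 in both libraries, whereas the granulocyte and monocyte lists are high in replicate 2 and near or below 0 in replicate 1.

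Classical targets of MLL fusions were mostly lower in leukemia 1 than in pro-B cells. Of 22 tested, 1 rose and 5 fell, against 2.71% and 3.74% of all genes. In both libraries 2 were at least 2-fold higher and 12 at least 2-fold lower, against 7.06% and 13.3% of all genes. The median change was -2.01 on the log2 scale. Runx2 and Tcf4, lower in both libraries, also stand among the plasmacytoid dendritic cell markers described below. Runx2 had 18.1 and 59.5 CPM against 588 and 639 CPM. The part of such cells in these falls was not tested. Hoxa genes were close to 0 in the leukemia and low in the pro-B cells. Hoxa9 had 0 and 19 counts against 182 and 170 counts in pro-B cells (0 and 0.692 CPM against 7.27 and 7.08 CPM), lower in both libraries but not called (edgeR adjusted p = 0.20). Hoxa6 had no count in either leukemia library against 43 and 39 counts, at least 29.7-fold lower, and Hoxa4 had none against 31 and 33 counts, at least 23.2-fold lower. Hoxa5 had 1 count in all against 153 from pro-B cells, a ratio of 166 with a 95% counting interval from 29.4 to 6620. These 3 were called lower.

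Meis1, the cofactor of HOXA proteins, had 0.116 and 0.984 CPM against 9.95 and 9.95 CPM, lower in both libraries and not called (edgeR adjusted p = 0.11). Flt3, a receptor tyrosine kinase of early progenitors, fell from 166 and 178 CPM to 29.6 and 31.4 CPM (log2 change -2.40, SE 0.16, edgeR adjusted p = 0.024). Eya1, a transcriptional cofactor, fell from 18.9 and 23.3 CPM to 0.193 and 0.146 CPM. Igf2bp3, an RNA-binding protein of fetal tissue, was the member that rose, at 53 and 33.4 CPM against 5.39 and 5.79 CPM (log2 change 3.06, SE 0.34, edgeR adjusted p = 0.038). Runx1 and Mef2c were above both pro-B libraries in each leukemia library, Runx1 at 382 and 185 CPM against 107 and 100 CPM, without a call. Among 16 genes of the MLL and AF4 complexes, 1 fell and none rose, against 3.74% and 2.71% of all genes. The gene that fell was Psip1, which encodes the chromatin tether LEDGF, at 97.3 and 105 CPM against 261 and 254 CPM.

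Genes of the pro-B stage were measured as a check of the stated cell types. Of 36 tested, 4 fell (3.74% of all genes) and none rose. In both libraries 2 were at least 2-fold higher, a share below the 7.06% of all genes, and 11 at least 2-fold lower, against 13.3% of all genes. Core B-lineage genes were present in all 4 libraries. Pax5 had 139 and 127 CPM in leukemia 1 against 104 and 105 CPM, and Ebf1 had 525 and 390 CPM against 486 and 460 CPM. Neither was called. Igll1 and Vpreb1, the surrogate light chains of the pre-B receptor, were abundant in both groups, with Vpreb1 at 438 and 867 CPM against 452 and 363 CPM, although reads may be split with its copy Vpreb2.

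The recombination machinery was lower. Dntt, the terminal transferase gene, had 0.232 and 1.09 CPM in leukemia 1 against 1046 and 645 CPM in pro-B cells (log2 change -10.20, SE 0.93, edgeR adjusted p = 0.031). Rag2 had 6.37 and 5.94 CPM against 51.0 and 39.9 CPM and fell by 2.78 (SE 0.23). Rag1 had 69.3 and 29.9 CPM against 388 and 341 CPM, lower in both libraries with an edgeR adjusted p of 0.065. Blk, a kinase of the SRC family in B cells, fell from 160 and 193 CPM to 2.70 and 3.72 CPM, and Cd72 from 222 and 258 CPM to 44.0 and 57.5 CPM. Cd79a and Vpreb3 went the other way without a call, with Cd79a at 942 and 1351 CPM against 486 and 440 CPM (edgeR adjusted p = 0.053).

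Some genes of later B cells and of activated B cells were higher. Of 20 mature B-cell markers tested, 5 rose (2.71% of all genes) and none fell. In both libraries 8 were at least 2-fold higher, against 7.06% of all genes, and 3 at least 2-fold lower, a share near the 13.3% of all genes. Cd83, an activation antigen, had 182 and 71.1 CPM against 1.24 and 2.5 CPM (log2 change 6.2, SE 0.79, edgeR adjusted p = 0.041). Cr2, the complement receptor of mature B cells, had 69.9 and 27.8 CPM against 1.64 and 2.41 CPM. Bank1, a scaffold of B-cell receptor signalling, had 86.8 and 63.7 CPM against 7.83 and 9.91 CPM. The costimulatory ligand Cd80 had 10.2 and 6.3 CPM against 0.639 and 0.458 CPM, and the activation marker Cd69 had 582 and 515 CPM against 263 and 247 CPM. The group did not move as a whole: Ms4a1, the CD20 gene, had 57.0 and 12.4 CPM against 13.8 and 17.4 CPM, Ighm had 1679 and 3008 CPM against 3513 and 3646 CPM, and Ccr7 was at least 2-fold lower in both libraries. By edgeR, 0 of 12 plasma cell genes were called, with 1 higher and 2 lower at p under 0.05 before adjustment. Over all 14442 genes 4028 had such a p. DESeq2 called 2 plasma cell genes higher and 2 lower, where it called 3159 genes in all.

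Class II antigen presentation split the 2 leukemia libraries. H2-Aa had 37.2 CPM in replicate 1 and 660 CPM in replicate 2, against 352 and 444 CPM, and H2-Ab1 and H2-Eb1 were split in the same manner. Ciita, the master regulator of class II genes, had 2.66 and 20.0 CPM against 25.9 and 33.3 CPM. Over the 14 genes the summed level was 1472 CPM in replicate 1 and 4533 CPM in replicate 2, against 1983 and 2372 CPM in pro-B cells. Granulocyte and monocyte markers were also higher in replicate 2, and their part in the split was not tested. The 3 members that rose did so in both libraries: Ifi30, a lysosomal thiol reductase, at 502 and 626 CPM against 78.9 and 87.0 CPM, March1, a ubiquitin ligase that removes class II from the surface, at 78.4 and 69.9 CPM against 14.9 and 19.2 CPM, and H2-DMb2 at 36.0 and 31.8 CPM against 7.43 and 10.2 CPM.

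Among 24 cytokine and growth factor receptors, 4 rose and 3 fell, against 2.71% and 3.74% of all genes. In both libraries 7 were at least 2-fold higher and 5 at least 2-fold lower, against 7.06% and 13.3%. Csf1r, the receptor of the macrophage growth factor CSF1, had 131 and 209 CPM against 3.84 and 5.62 CPM (log2 change 5.27, SE 0.40, edgeR adjusted p = 0.027). Il4ra and Il21r, the receptor chains for interleukins 4 and 21, both rose, with Il4ra at 334 and 229 CPM against 32.3 and 37.4 CPM and Il21r at 213 and 166 CPM against 23.1 and 25.6 CPM. Tnfrsf1b, a receptor of tumour necrosis factor, had 111 and 102 CPM against 47.3 and 45.3 CPM and rose too. Flt3 fell, as given above, and so did Csf2rb2, at 54.0 and 57.1 CPM against 206 and 224 CPM, and Il10rb, at 16.8 and 20.04 CPM against 49.4 and 48.7 CPM. Il7r, the receptor that pro-B cells need for growth, had 180 and 223 CPM against 404 and 341 CPM and missed the threshold (edgeR adjusted p = 0.095).

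In the Notch pathway 2 of 14 genes fell (3.74% of all genes) and none rose. In both libraries 2 were at least 2-fold higher and 5 at least 2-fold lower, against 7.06% and 13.3% of all genes. Notch3 had 0 and 2 counts in leukemia 1 against 503 and 468 counts, a pro-B to leukemia ratio of 528 with a 95% counting interval from 146 to 4370. Hes1, a repressor induced by Notch, had 4.05 and 2.70 CPM against 29.2 and 29.8 CPM. The genes higher in both libraries were Rbpj, the DNA-binding partner of Notch, at 146 and 80.1 CPM against 32.1 and 31.3 CPM, and the ligand Jag1, at 0.463 and 2.04 CPM against 0.0799 and 0.125 CPM, neither of them called.

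The share of interferon response genes that were called, or that changed in both libraries, was near that of all genes. Of 30 tested, 2 fell (3.74% of all genes) and none rose, and 4 were at least 2-fold lower in both libraries, the same share as the 13.3% of all genes. Those that fell were Ifit2, at 10.9 and 11.3 CPM against 33.5 and 35.1 CPM, and Bst2, which is also a marker of plasmacytoid dendritic cells, at 59.2 and 79.9 CPM against 389 and 447 CPM. In replicate 1 alone 12 of the 30 were at least 2-fold lower, against 1235 of the 14442 genes tested. In replicate 2 alone 6 were at least 2-fold higher, against 834 of the 14442. Both shares were above those of all genes. Gbp3, an interferon-induced GTPase, was higher in both, at 117 and 50.7 CPM against 22.3 and 19.5 CPM, without a call (edgeR adjusted p = 0.095).

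The largest rises were taken from called genes on which both leukemia libraries agreed within 2-fold. Cdh17, a cadherin known from intestine and from B cells, had 879 and 465 CPM in leukemia 1 against 0.360 and 0.666 CPM in pro-B cells (log2 change 10.46, SE 0.68, edgeR adjusted p = 0.024). Lamb1, a laminin chain, had 389 and 286 CPM against 2.20 and 2.29 CPM, and Col6a6, a collagen VI chain, had 125 and 114 CPM against 0.360 and 0.5 CPM. Both leukemia libraries stood more than 50-fold above the pro-B libraries for each of these 3 genes.

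Among the other rises of these 12, Lta, which encodes lymphotoxin alpha, had 192 and 187 CPM against 0.759 and 0.5 CPM (log2 change 8.33, SE 0.31, edgeR adjusted p = 0.023). Il1r2, the decoy receptor of interleukin 1, had 70.7 and 112 CPM against 0.320 and 0.583 CPM. Ryr2, a calcium channel best known from heart muscle, had 53.8 and 30.4 CPM against 0.0400 and 0.125 CPM. Tac4, the gene of hemokinin 1, had 117 and 103 CPM against 0.919 and 0.874 CPM. Msrb3, a methionine sulfoxide reductase, had 314 and 192 CPM against 0.44 and 0.624 CPM, and Rtn1, a reticulon of the endoplasmic reticulum, had 184 and 183 CPM against 1.12 and 0.957 CPM. Hydin, known from motile cilia, had 672 and 492 counts against 1 and 1, a ratio of 535 with a 95% counting interval from 148 to 4420. Etv4 and Cdkn2a, described above, complete the 12.

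**Figure D4:**
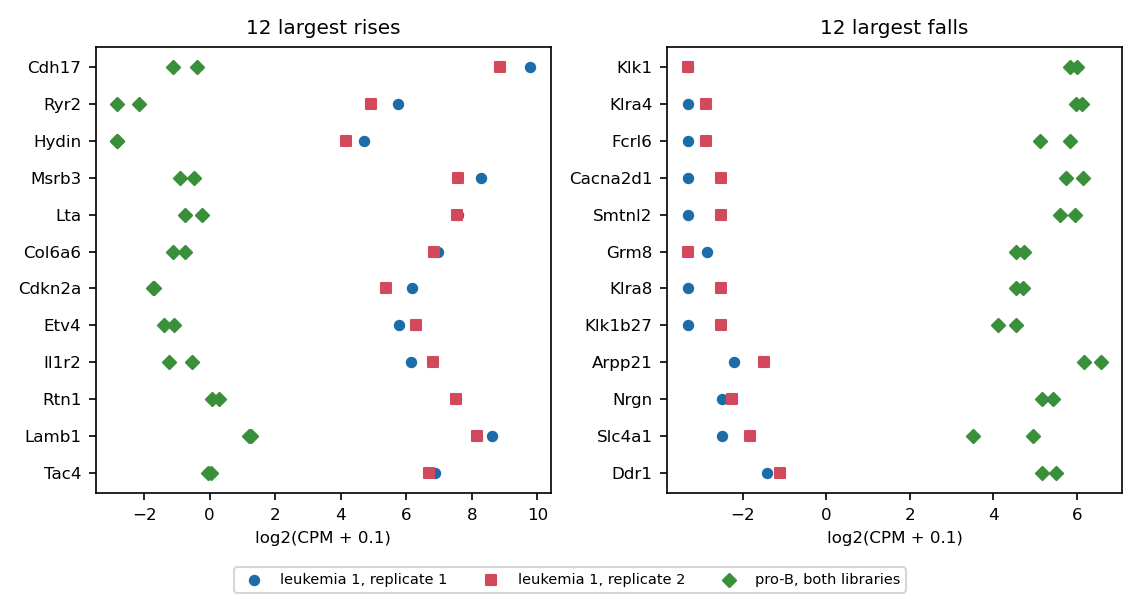
Level of the genes with the 12 strongest rises and the 12 strongest falls in each of the 4 libraries, as log2(CPM + 0.1), with leukemia 1 replicate 1 as circles, replicate 2 as squares and both pro-B libraries as diamonds. In each of the 24 genes the 2 leukemia libraries lie together and apart from the pro-B libraries; a value at the left edge of the right panel is a count of 0.

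The largest falls were genes at or near 0 in leukemia 1. Klk1, a kallikrein, had no count in either leukemia library against 1427 and 1539 counts in pro-B cells, which is at least 1080-fold lower. Klra4 and Klra8, receptors of the Ly49 family of natural killer cells, had 1 and 2 counts in all against 3271 and 1214 counts. The pro-B to leukemia ratio was 3560 for Klra4, with a 95% counting interval from 638 to 141000, and 660 for Klra8, from 182 to 5460. Klk1b27, a relative of Klk1, had 2 counts in all and a ratio of 537, with an interval from 148 to 4440. The Klra genes and the Klk1 genes each have close copies that can share reads, so their separate values are uncertain.

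Of the other falls, Fcrl6, an Fc receptor-like protein, had 0 and 1 counts against 1422 and 837. Cacna2d1, a calcium channel subunit, had 0 and 2 counts against 1771 and 1276, and Grm8, a glutamate receptor, 1 and 0 against 581 and 641. Arpp21, a phosphoprotein of early lymphoid cells and neurons, had 0.116 and 0.255 CPM against 96.1 and 71.7 CPM (log2 change -8.67, SE 0.45, edgeR adjusted p = 0.023). Nrgn had 0.0772 and 0.109 CPM against 35.8 and 42.7 CPM, and the collagen receptor Ddr1 had 0.27 and 0.364 CPM against 36.1 and 45.1 CPM. Smtnl2 had 0 and 2 counts against 1541 and 1167, and Slc4a1, the anion exchanger of red cells, had 2 and 5 counts against 281 and 736.

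Markers of cells other than the leukemia were measured in every library because neither group need be pure. Of 27 granulocyte markers, 22 were at least 2-fold higher in replicate 2 alone, and 16 were at least 2-fold lower in replicate 1 alone. Over all 14442 genes tested these counts were 834 and 1235. S100a8, a calcium-binding protein of neutrophils, had 42.7 CPM in replicate 1 and 3560 CPM in replicate 2, against 99.4 and 104 CPM. Mpo, Elane and Ltf, which encode granule proteins, were 0.772 to 10.5 CPM in replicate 1 and 111 to 1483 CPM in replicate 2. None of these 4 was called. Of the 2 granulocyte-list genes that rose, Ncf1, a subunit of the phagocyte oxidase that B cells express too, did not follow replicate 2, with 623 and 399 CPM against 123 and 141 CPM.

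Monocyte and macrophage markers were mixed. Of 21 tested, 3 rose (2.71% of all genes) and none fell. In both libraries 9 were at least 2-fold higher (7.06% of all genes), and 7 in replicate 2 alone (834 of all 14442 genes). The summed level was 919 CPM in replicate 1 and 4230 CPM in replicate 2, against 3303 and 3695 CPM in pro-B cells, and Mpeg1 alone gave 2398 and 2797 CPM of the latter. Lyz2, the macrophage lysozyme, had 119 and 2129 CPM against 107 and 101 CPM. Csf1r, Cebpb and Fcgr1 rose in both libraries, with Cebpb, a factor of myeloid differentiation, at 18.6 and 22.5 CPM against 1.36 and 1.5 CPM.

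The pro-B libraries carried markers of cells that share parts of their sort gate. Plasmacytoid dendritic cells and some natural killer cells also display B220. Of 15 plasmacytoid dendritic cell markers, 6 fell in leukemia 1 (3.74% of all genes), none rose and 11 were at least 2-fold lower in both libraries (13.3% of all genes). Siglech, the defining lectin of these cells, had 22.3 and 14.8 CPM in leukemia 1 against 1476 and 1648 CPM (log2 change -6.28, SE 0.35, edgeR adjusted p = 0.024). Ccr9 had 0.309 and 1.9 CPM against 149 and 190 CPM, and Ly6d had 3.71 and 3.13 CPM against 199.9 and 225 CPM. The list summed to 915 and 1057 CPM in leukemia 1 against 5010 and 5586 CPM in pro-B cells. In bulk counts, transcripts such as Ly6d that come from the pro-B cells themselves cannot be told apart from those of plasmacytoid dendritic cells. The part of plasmacytoid dendritic cells in the falls of Ly6d, Flt3, Blk, Bst2 and Klk1 was not tested.

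T and natural killer cell markers showed the same direction. Of 31 tested, 6 fell (3.74% of all genes), none rose and 21 were at least 2-fold lower in both libraries (13.3% of all genes). The list summed to 66.4 and 178 CPM against 1167 and 1161 CPM. Gzma, a granzyme, had 0.0386 and 0.875 CPM against 113 and 96.5 CPM, and Ncr1, which encodes NKp46 of natural killer cells, had 0 and 11 counts against 1724 and 1529. The T-cell gene Cd3e was low in all 4 libraries, at 0.309 and 3.79 CPM against 2.88 and 2.04 CPM. Of 13 erythroid and platelet markers, 4 fell (3.74% of all genes) and none rose. The globin gene Hbb-b2 had 0.425 and 0.692 CPM against 14.0 and 28.6 CPM. Of 9 stromal and endothelial markers tested, 1 fell (3.74% of all genes) and none rose. In both libraries 4 were at least 2-fold lower (13.3% of all genes) and none at least 2-fold higher (7.06%). In replicate 1 alone 1 was at least 2-fold higher and in replicate 2 alone 3, against 739 and 834 of the 14442 genes. The list summed to 384 and 525 CPM in leukemia 1 against 238 and 242 CPM in pro-B cells. The gene that fell was Cdh5, an endothelial cadherin, at 1.54 and 2.04 CPM against 31.9 and 34.9 CPM. The stromal genes Col1a1 and Col3a1 were at 5 CPM or less in every library.

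**Figure D5:**
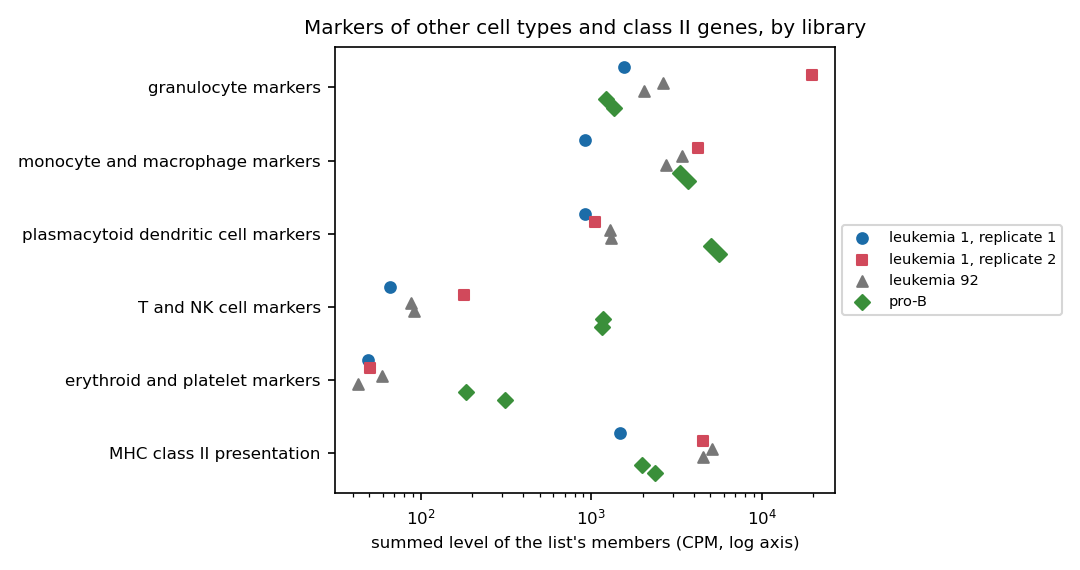
Summed level of 5 marker lists of other cell types and of the class II genes, in CPM on a log axis, in each of the 6 libraries. Granulocyte markers reach 19680 CPM in leukemia 1 replicate 2 and lie between 1220 and 2634 CPM in the other 5 libraries, and the pro-B libraries are the highest for plasmacytoid dendritic, T and NK, and erythroid markers.

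Genes on which the leukemia 1 libraries differed were not granulocyte genes alone. With a minimum of 20 CPM in the higher library, 224 genes were at least 4-fold higher in replicate 2 and 111 at least 4-fold higher in replicate 1. Of the 224, the leukemia 92 mean was nearer to replicate 2 for 93 and nearer to replicate 1 for 131. Of the 111, it was nearer to replicate 1 for 50 and nearer to replicate 2 for 61. Upk1b, a uroplakin, had 0.347 CPM in replicate 1 and 283 CPM in replicate 2, and 68.3 and 50.8 CPM in leukemia 92. Lama4, a laminin chain, had 0.425 and 129 CPM, and 89.4 and 57.8 CPM in leukemia 92. Both were under 1 CPM in each pro-B library, so that replicate 1 resembled the pro-B cells and replicate 2 the other leukemia for these 2 genes.

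Ctsk, the cathepsin of osteoclasts, had 0.502 and 211 CPM, against 0.160 and 0.375 CPM in pro-B cells. Igj, the joining chain of secreted antibody, had 0.270 and 105 CPM, against 152 and 185 CPM in pro-B cells. For Igj, replicate 2 was thus nearer to the pro-B level than replicate 1. Leukemia 92 was at 8 CPM or less for both genes. In the other direction, Cdk6, a G1 kinase, had 198 CPM in replicate 1 and 12.9 CPM in replicate 2, against 70.5 and 82.2 CPM in pro-B cells and 130 and 98.9 CPM in leukemia 92. Slc25a13, a mitochondrial carrier, had 54.7 and 4.26 CPM, and 52.6 and 48.3 CPM in leukemia 92. Iigp1, an interferon-induced GTPase, had 51.4 and 2.44 CPM, against 1.84 and 2.21 CPM in pro-B cells, and at most 1 count in each leukemia 92 library. Cd40, the costimulatory receptor, had 57.9 and 7.14 CPM against 4.24 and 3.21 CPM. None of these genes was called, and only Cd40 was at least 2-fold higher in both libraries.

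Leukemia 92 was tested against leukemia 1 in a fit of all 6 libraries, in which 3.09% of 14979 genes were called, 190 of them higher and 273 lower in leukemia 1. Of the ERK output genes described above, Etv4 had 67.0 and 60.9 CPM and Dusp6 had 458 and 500 CPM in leukemia 92. The fitted log2 difference between the leukemias was 0.06 for each, with edgeR adjusted p = 0.89 and 0.85, and these p values do not show that the leukemias are alike. Cdkn2a had 96.7 and 90.5 CPM and Cdkn1a 393 and 363 CPM in leukemia 92, and Hoxa9 had 9 and 18 counts. Cd22, an inhibitory receptor of B cells picked here after its values were seen, was lower in leukemia 1 by the same fit (log2 difference -2.11, edgeR adjusted p = 0.023), at 67.8 and 68.3 CPM against 306 and 278 CPM. Both comparisons use the same leukemia 1 libraries.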

How the data were processed

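RNA-seq gene counts of 6 libraries were used as the authors deposited them, 1 column of raw counts a library. The submitters' processing notes list the build mm9 and the tools STAR 2.4, HTSeq 0.6.1 and DESeq2, with no role or setting, and the strand setting of the counting is not given. The 5 summary entries that name no gene (34.0 to 39.6% of all counts) were dropped. The main test was edgeR 4.0.16 in R 4.3.3 on the 4 leukemia 1 and pro-B libraries (filterByExpr with a minimum count of 10, TMM scaling, robust quasi-likelihood fit), with Benjamini-Hochberg adjustment over all genes tested. Leukemia 1 was tested against leukemia 92 in a fit of all 6 libraries. Changes of single libraries are log2 CPM after TMM scaling with a prior count of 2. Printed CPM are counts over the library's gene counts, without TMM. A fold against 0 counts uses a floor of 3 counts over the group. Ratios on 1 to 3 counts have exact 95% intervals, which cover counting error only.

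The libraries, the 29 gene lists and the rules were chosen with earlier results of these data known. Of 607 list entries, 593 matched by symbol, 11 by a synonym and 3 did not match. Genes were named by rule: the transforming genes, the 12 largest rises and falls with both leukemia libraries at least 2-fold changed and less than 2-fold apart, at least 20 CPM in the higher group and no predicted or antigen receptor gene, up to 2 members a direction of each list, by smallest p among called members or otherwise among those 2-fold changed in both libraries, and the 6 genes each way on which the leukemia 1 libraries differ most, at 50 CPM or more. Other list members are examples chosen after their values were seen. Alternatives were DESeq2 1.42.0 (its size factors and its Wald test), no filter, a prior count of 0.5, all 6 libraries, the replicate number as a block, and each library left out. The scripts were tested on simulated counts.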

Additional observations from a re-analysis of the deposited data

Results flagged for a closer look

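Of the genes named by the rule, 10 differed between leukemia 1 and leukemia 92 by the edgeR test of the difference itself in the fit of all 6 libraries. Higher in leukemia 1 were Hes1 (log2 difference 3.7, edgeR adjusted p = 0.028), Rag2 (1.84, 0.03), Lamb1 (1.77, 0.035), Cenpf (0.87, 0.043) and Top2a (0.76, 0.043). Lower in leukemia 1 were Ly6d (-2.38, edgeR adjusted p = 0.026), Col6a6 (-1.82, 0.027), Cd5 (-1.64, 0.047), March1 (-1.24, 0.044) and Tac4 (-0.87, 0.047). Against pro-B cells, Hes1, Rag2, Cenpf, Top2a and Ly6d fell in leukemia 1, while Lamb1, Col6a6, March1 and Tac4 rose. Each leukemia is 1 primary leukemia, so the difference is between these 2 leukemias. With the replicate number as a block, or without any 1 library of leukemia 92 or of the pro-B cells, 0 genes passed this test.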

How the results depend on the processing

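With DESeq2's Wald test 1476 genes were higher and 1683 lower than in pro-B cells, against 392 and 540 by edgeR, and with all 6 libraries in the fit 1431 and 1607. Leaving out each library gave 0 to 4747 higher and 0 to 5145 lower; the high counts come without leukemia 1 replicate 1 (4747 and 4849) or replicate 2 (4622 and 5145), where the lone library is assumed to vary like the pro-B pair. Against leukemia 92 (190 higher, 273 lower), DESeq2 gave 1351 and 1325, and leaving out a library gave 0 to 4224 and 0 to 3909. DESeq2's size factors (427 and 524), no filter (374 and 522) and the counts of genes changed in both libraries stayed within 1.5 times. Of the 932 genes called, 914 were called with DESeq2's size factors, 926 by DESeq2, 834 without a filter and 931 with all 6 libraries.

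Replicate numbers share nothing in the labels, and deviations of same-numbered libraries correlated at r = 0.08 between leukemia 1 and pro-B cells and at -0.1 between the leukemias. With the replicate block, edgeR called 161 higher and 126 lower than in pro-B cells, 269 of them among the 932, and 0 higher and 0 lower than in leukemia 92 (3042 at an unadjusted p under 0.05). The block turned Cdk6 to -0.47.

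Leaving out 1 library turned the direction of 9 named genes, none of them called, with ranges of log2 change of -2.41 to 1.51 for Cdk6, -0.41 to 0.22 for Chek1, -0.26 to 3.02 for Dusp16, -0.13 to 0.29 for Ebf1, -2.45 to 4.71 for Ltf, -1.2 to 6.11 for Prtn3, -1.8 to 1.87 for Slc25a13, -0.34 to 2.76 for Slc30a1 and -0.52 to 9.14 for Upk1b. The ends come from leaving out leukemia 1 replicate 1 or 2. The cause of the other shifts was not tested. At these depths 3 counts are 0.109 to 0.125 CPM in the 4 libraries.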

Other observations

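Stem and progenitor markers were not described as a list above, although their members Meis1, Kit and Lmo2 also stand in lists that were. By edgeR, 0 of 13 tested were called, with 3 higher and 3 lower at p under 0.05 before adjustment. Over all 14442 genes 4028 had such a p. DESeq2 called 3 of these markers higher and 3 lower, where it called 3159 genes in all. In both leukemia 1 libraries 2 were at least 2-fold higher and 3 at least 2-fold lower, against 7.06% and 13.3% of all genes. Against leukemia 92, edgeR called 7 of 36 replication genes and 7 of 30 mitotic genes higher in leukemia 1 and none lower, where 190 of all 14979 genes were called higher. With the replicate block 0 genes were called in that comparison. Pcna was among them, at 420 and 501 CPM in leukemia 1 and 237 and 265 CPM in leukemia 92 (log2 difference 0.86, edgeR adjusted p = 0.047). Summed over the 30 mitotic genes, the level was 3878 and 4843 CPM in leukemia 1, 2572 and 2762 CPM in leukemia 92 and 8067 and 7818 CPM in pro-B cells.

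The Y-linked counts of 121 and 1205 in leukemia 1 replicates 1 and 2 compare with 0 and 6 in leukemia 92 and 0 and 0 in pro-B cells. Marrow of host and helper cells can be present in the leukemia samples, and the part of such cells in these counts was not tested.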
